A study of Homo sapiens with 17 samples.

Results

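The DNA replication and S-phase genes described here are 40 protein-coding genes, taken by name from the annotation and grouped by the role of their products. They were 15 genes of replication licensing, 6 of helicase activation, 12 of the replication fork, 4 of nucleotide supply and 3 of S-phase entry, out of 20033 protein-coding genes of GRCh38.p14. The measurement was the position of tagged histone H2A.Z, by ChIP-seq, in the human colon cancer line Caco-2/15, whose cells acquire enterocyte features after reaching confluence. For each gene, the deposited intervals within 1 kb of either annotated gene end were taken from 8 lists, and the end with the higher mean rank was used, called the leading end. Each of the 4 groups had 2 experiments, Exp1 and Exp2. The groups were cells with a heterozygous Flag tag on H2AFV (now H2AZ2, encoding H2A.Z.2) kept for 7 days after confluence, cells with a heterozygous Flag tag on H2AFZ (now H2AZ1, encoding H2A.Z.1) kept likewise, and subconfluent cells of each genotype. Chromatin of all groups received spike-in chromatin before precipitation with an anti-Flag antibody, which sees the product of the tagged allele and not that of the untagged one. The sources used here do not say whether each tagged line was 1 clone or whether the experiments were separate cultures. The p-values therefore measure the spread between these lists, which may be technical.

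Before S phase, the origin recognition complex, CDC6 and CDT1 load the ring-shaped MCM helicase onto DNA, a step called licensing that geminin blocks. CDC45, the GINS complex and MCM10 then take part in turning the loaded helicase into a moving fork, where polymerases, a sliding clamp and its loader copy the strands. E2F transcription factors and cyclin E drive entry into S phase, and many genes of replication are E2F targets. H2A.Z replaces canonical H2A in nucleosomes beside starts of transcription, and epithelial cells of this line leave the cell cycle as they differentiate.

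The promoters of 6 members show what lay under or beside the intervals. TYMS and MCM6 had the largest differences between growth states, TK1 a strongest interval that differed in place between states, ORC1 no interval at its annotated ends, and FEN1 and CDC6 the highest and the lowest mean rank. Each line runs 5′ to 3′ on the gene's own strand, from 220 bases before the start of transcription to 30 bases after it, as given by RefSeq for GRCh38.p14. Capitals mark matches to E2F-type spellings TTTGGCGC, TTTCCCGC, TTTCGCGC and TTTGCCGC on either strand, where 1 capital run may hold overlapping matches. The windows are chr18:657433-657682 on the plus strand (TYMS), chr2:135876414-135876663 on the minus strand (MCM6), chr17:78187175-78187424 on the minus strand (TK1), chr1:52404394-52404643 on the minus strand (ORC1), chr11:61792691-61792940 on the plus strand (FEN1) and chr17:40287659-40287908 on the plus strand (CDC6).
TYMS: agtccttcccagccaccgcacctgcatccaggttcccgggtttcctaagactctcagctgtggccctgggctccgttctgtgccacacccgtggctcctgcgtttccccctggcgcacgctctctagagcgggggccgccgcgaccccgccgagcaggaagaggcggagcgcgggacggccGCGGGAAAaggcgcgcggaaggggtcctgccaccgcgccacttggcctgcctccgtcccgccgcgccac
MCM6: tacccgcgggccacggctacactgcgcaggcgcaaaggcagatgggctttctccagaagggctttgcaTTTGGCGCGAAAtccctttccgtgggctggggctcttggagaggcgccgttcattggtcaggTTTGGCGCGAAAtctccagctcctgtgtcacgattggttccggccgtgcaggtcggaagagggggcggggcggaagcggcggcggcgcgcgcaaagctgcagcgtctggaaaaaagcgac
TK1: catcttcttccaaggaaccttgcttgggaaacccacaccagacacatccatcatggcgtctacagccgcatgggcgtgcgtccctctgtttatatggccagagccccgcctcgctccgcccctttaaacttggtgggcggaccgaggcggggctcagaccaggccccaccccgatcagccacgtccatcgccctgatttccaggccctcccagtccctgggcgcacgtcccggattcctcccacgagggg
ORC1: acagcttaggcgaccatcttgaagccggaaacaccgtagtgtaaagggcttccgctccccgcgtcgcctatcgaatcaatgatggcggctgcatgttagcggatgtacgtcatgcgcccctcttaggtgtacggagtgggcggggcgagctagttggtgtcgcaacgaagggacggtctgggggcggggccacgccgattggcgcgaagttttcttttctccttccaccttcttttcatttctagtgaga
FEN1: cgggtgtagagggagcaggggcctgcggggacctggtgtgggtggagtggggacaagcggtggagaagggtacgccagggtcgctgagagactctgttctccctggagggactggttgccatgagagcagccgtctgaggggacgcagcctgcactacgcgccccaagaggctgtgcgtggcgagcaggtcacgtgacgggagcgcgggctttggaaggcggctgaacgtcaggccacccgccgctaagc
CDC6: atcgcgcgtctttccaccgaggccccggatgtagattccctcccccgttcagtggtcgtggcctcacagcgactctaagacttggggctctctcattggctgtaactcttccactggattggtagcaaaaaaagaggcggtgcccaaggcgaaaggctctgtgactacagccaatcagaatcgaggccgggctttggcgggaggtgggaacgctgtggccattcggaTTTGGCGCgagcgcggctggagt
The strongest interval covered the whole of the printed window in 8 lists at FEN1, 7 at MCM6, 7 at ORC1 and 3 at TYMS, and in 0 at TK1 and CDC6. At TK1 it covered the start of transcription itself in 1 list, and at CDC6 in 5. The MCM6 window held 4 E2F-type matches in 2 overlapping pairs, the TYMS and CDC6 windows held 1 each, and the others held 0.

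Promoters of the members, and of other replication genes, held E2F-type spellings more often than promoters at large. The promoter table held 36 of the 40 members, and over its full window of 250 bases before and 50 after the start, 17 of the 36 (47.2%) had at least 1 such match. The share was 4.44% of all 15842 promoters in the table and 5.76% of the 8970 whose genes were occupied in all 8 lists. In a list of other replication genes, 12 of 38 promoters (31.6%) held a match. The pentamer CCAAT stood in 21 of the 36 (58.3%), against 52.6% of the other replication genes and 36.4% of all promoters. The spellings TTTGAA and TTCGAA, forms of the cell cycle homology region, stood in 2 of the 36 (5.56%), against 10.5% of the other replication genes and 13.5% of all promoters, both motifs being searched on both strands. The members' median GC content was 64.5%, against 62.7% for all promoters. It was 65.7% for promoters whose genes were occupied in all 8 lists and 65.8% for the other replication genes. These matches describe letters in a window, and binding at them was not tested.

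Tagged H2A.Z stood at the ends of most replication genes in both growth states and with both isoforms. An interval was present in all 8 lists at 34 of the 40 members (85%), against 54.5% of all protein-coding genes. In postconfluent cells, 38 and 39 members were occupied with H2A.Z.2 (all genes 60.1% and 60.9%) and 38 and 36 with H2A.Z.1 (all genes 61.3% and 61.9%). In subconfluent cells, 38 were occupied in each of the 4 lists, against 60.5% and 59.6% of all genes with H2A.Z.2 and 61.8% and 62% with H2A.Z.1. Counted only at the start of transcription of the promoter table, 30 of 36 members (83.3%) had an interval in all 8 lists, against 55.7% of 15842 genes. For every occupied member with a known strand except E2F1, the leading end was the start of transcription.

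The other 6 members were not in all 8 lists. MCM3 lacked an interval in H2A.Z.1 subconfluent Exp2, CDC6 and GMNN in H2A.Z.1 postconfluent Exp2, and RRM2 in H2A.Z.1 postconfluent Exp1. POLE was found in 3 lists, 1 of H2A.Z.2 and 1 of H2A.Z.1 in postconfluent cells and 1 of H2A.Z.1 in subconfluent cells. Where the lists were used whole, 38 members were occupied in all 8, against 57.9% of all genes, and POLE in 6. ORC1 had no interval within 1 kb of either annotated end in any list. Its annotated end at 52409503 on chromosome 1 lies 5080 bp from the start of transcription in the promoter table, 52404423, where 7 of 8 lists held an interval 1136 to 1337 bp wide. At that start, ORC1 was at percentile 46.3 in H2A.Z.2 postconfluent Exp1 and not listed in Exp2, at 63.6 and 34.7 with H2A.Z.1 in postconfluent cells, at 31.2 and 67.9 with H2A.Z.2 in subconfluent cells, and at 73.6 and 49.4 with H2A.Z.1 in subconfluent cells.

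A percentile is the rank of an interval's fold enrichment within the 30603 intervals used from its own list, with 100 the highest. It says where a gene stands among the intervals of that list and not how much H2A.Z it carries. In a bulk precipitation, a larger share of cells with the mark and more of it per cell cannot be told apart. Among the 34 members occupied in all 8 lists, the mean percentile had a median of 75.1, against 76.8 over the 10885 genes ranked in the same way, and 15 of the 34 lay above 76.8. List by list, the members' median was 72.6 and 73.3 with H2A.Z.2 (all genes 77.7 and 79.1) and 75.8 and 76.4 with H2A.Z.1 (all genes 78.5 and 78.0) in postconfluent cells. In subconfluent cells it was 62.0 and 71.1 with H2A.Z.2 (all genes 76.7 and 78.8) and 75.4 and 76.8 with H2A.Z.1 (all genes 78.8 and 77.3). The members' median lay below that of all genes in each of the 8 lists. Some occupied regions belong to a neighbour as well: in all 8 lists, the interval at FEN1 also covered the start of TMEM258, that at ORC3 the start of RARS2 and that at CDC45 an end of UFD1. In 7 lists the interval of MCM2 covered the start of TPRA1, that of ORC6 the start of VPS35 and that of ORC1 the start of PRPF38A, so the mark there is that of a shared region.

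**Figure D1:**
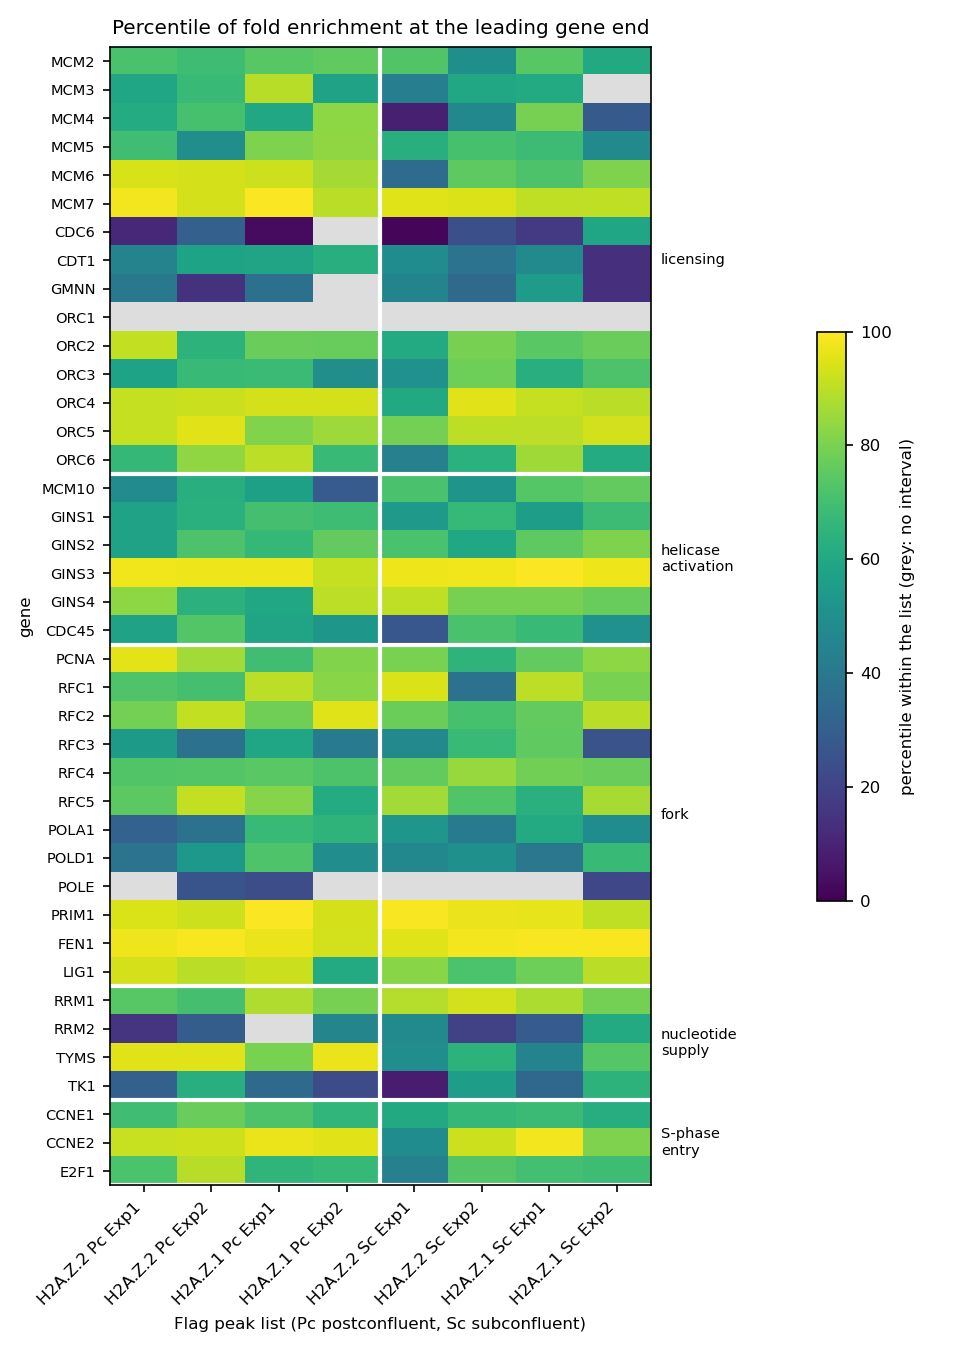
Percentile of fold enrichment at the leading gene end (color, 0 to 100; grey, no interval) for the 40 genes, by role, in each of the 8 lists (columns; postconfluent, Pc, left of subconfluent, Sc). FEN1, GINS3, PRIM1 and MCM7 were high in every list, and CDC6, POLE, GMNN, RRM2 and TK1 had the lowest mean values.

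Among the licensing genes, which load the helicase, the mean percentile over lists ranged from 20.9 to 93.9, with 11 of 15 genes occupied in all 8 lists. MCM7, a helicase subunit at chr7:100092728-100101397, was high everywhere, at 98.3 and 93.6 with H2A.Z.2 and 99.4 and 89.7 with H2A.Z.1 in postconfluent cells. In subconfluent cells MCM7 stood at 95.2 and 94.6 with H2A.Z.2 and at 90.3 and 90.4 with H2A.Z.1. The MCM7 summit lay at −540 to −345 bp from its start. The start of AP4M1 lies 603 bp from that of MCM7, and the interval covered it in 2 lists. MCM6, another subunit, at chr2:135839626-135876443, stood at 94.1 and 93.4 with H2A.Z.2 and at 92.6 and 86.7 with H2A.Z.1 in postconfluent cells, against 35.0 and 75.3 with H2A.Z.2 and 72.2 and 80.6 with H2A.Z.1 in subconfluent cells. All 4 postconfluent values of MCM6 lay above all 4 subconfluent ones. MCM4, also a subunit, at chr8:47960941-47978160, spread widely, at 61.5 and 70.7 with H2A.Z.2 and 59.6 and 83.1 with H2A.Z.1 in postconfluent cells, against 8.89 and 46.5 with H2A.Z.2 and 79.4 and 28.2 with H2A.Z.1 in subconfluent cells. The MCM4 groups overlapped, and in 4 lists its interval also covered an end of PRKDC. MCM5 stood at 69.2 and 49.6 with H2A.Z.2 and 80.7 and 83.6 with H2A.Z.1 in postconfluent cells, against 62.8 and 70.9 with H2A.Z.2 and 68.5 and 47.6 with H2A.Z.1 in subconfluent cells. MCM3 stood at 59.3 and 67.8 with H2A.Z.2 and 89.3 and 57.7 with H2A.Z.1 in postconfluent cells, against 43.1 and 59.8 with H2A.Z.2 and 61.3 in the H2A.Z.1 Exp1 list of subconfluent cells. Both of these subunits overlapped between states, and MCM2, the remaining subunit, averaged 68.5.

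CDC6, CDT1 and GMNN had lower means than any of the 6 helicase subunits, of which MCM4 was lowest with 54.8. CDC6, an ATPase of the loading reaction at chr17:40287879-40304657, had the lowest mean of all members, 20.9. It stood at 11.4 and 30.5 with H2A.Z.2 and at 2.77 with H2A.Z.1 Exp1 in postconfluent cells, against 1.79 and 24.3 with H2A.Z.2 and 17.0 and 58.7 with H2A.Z.1 in subconfluent cells. GMNN, which encodes geminin, the inhibitor of CDT1, averaged 34.2, at 39.9 and 14.7 with H2A.Z.2 and 36.9 with H2A.Z.1 Exp1 in postconfluent cells, against 45.3 and 34.7 with H2A.Z.2 and 54.7 and 13.4 with H2A.Z.1 in subconfluent cells. CDT1, the loading partner of the helicase, averaged 46.6, at 44.6 and 58.1 with H2A.Z.2 and 58.5 and 63.2 with H2A.Z.1 in postconfluent cells, against 48.8 and 38.1 with H2A.Z.2 and 47.5 and 13.7 with H2A.Z.1 in subconfluent cells. The states overlapped for all 3 genes. The strongest interval at CDT1 covered its start in 0 lists, with the summit at −655 to −334 bp from it. The origin recognition genes other than ORC1 averaged 63.4 (ORC3), 70.2 (ORC6), 75.2 (ORC2), 88.2 (ORC5) and 88.5 (ORC4). ORC4 stood at 91.3 and 92.1 with H2A.Z.2 and 93.4 and 93.6 with H2A.Z.1 in postconfluent cells, against 60.8 and 95.7 with H2A.Z.2 and 91.2 and 89.8 with H2A.Z.1 in subconfluent cells, so 1 list alone was well below the rest. In 5 lists the ORC4 interval also covered the start of MBD5. No test of these orders was made, and neighbours in them overlap between lists.

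All 6 genes of helicase activation were occupied in all 8 lists, with means of 57.4 to 97.0. GINS3, a subunit of the GINS complex, had one of the highest values of any member, at 97.7 and 97.3 with H2A.Z.2 and 97.3 and 91.4 with H2A.Z.1 in postconfluent cells, against 97.6 and 97.9 with H2A.Z.2 and 99.5 and 97.3 with H2A.Z.1 in subconfluent cells. GINS1, GINS2 and GINS4, the other subunits, averaged 63.1, 70.0 and 77.9, and CDC45, the helicase partner, 57.4. The strongest interval at GINS2 covered its start in 0 lists, with the summit at −910 to −417 bp from it. GINS4 stood at 83.0 and 64.4 with H2A.Z.2 and 59.6 and 90.2 with H2A.Z.1 in postconfluent cells, against 90.4 and 79.4 with H2A.Z.2 and 79.6 and 76.7 with H2A.Z.1 in subconfluent cells, with overlap. MCM10, which takes part in firing origins, stood at 48.3 and 63.3 with H2A.Z.2 and 56.7 and 28.9 with H2A.Z.1 in postconfluent cells, against 71.4 and 51.8 with H2A.Z.2 and 73.6 and 76.0 with H2A.Z.1 in subconfluent cells. The MCM10 groups overlapped.

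The fork genes had the highest median of mean percentiles of the 5 roles, 77.2, near the 76.8 of all 10885 ranked genes. Of the 12 fork genes, 11 were occupied in all 8 lists, and the 77.2 includes POLE, averaged over 3 lists. FEN1, the flap nuclease of lagging-strand maturation, at chr11:61792911-61797238, led all members with a mean of 97.3. It stood at 97.4 and 99.0 with H2A.Z.2 and 97.3 and 93.0 with H2A.Z.1 in postconfluent cells, against 95.0 and 98.4 with H2A.Z.2 and 98.9 and 99.2 with H2A.Z.1 in subconfluent cells. FEN1 was thus at 93.0 or above in every list. PRIM1, the catalytic subunit of primase, averaged 95.3, at 94.3 and 92.4 with H2A.Z.2 and 99.5 and 93.4 with H2A.Z.1 in postconfluent cells, against 99.0 and 97.2 with H2A.Z.2 and 96.1 and 90.6 with H2A.Z.1 in subconfluent cells. LIG1, the ligase that seals lagging-strand fragments, averaged 82.2, and PCNA, the sliding clamp, 79.6. In 7 lists the LIG1 interval also covered an end of ZSWIM9. The strongest interval at PCNA covered the PCNA start in 1 list and the start of CDS2 in 5. Its summit lay at −945 to −838 bp from the PCNA start, so these ranks are those of shared regions. The 5 subunits of the clamp loader averaged 51.0 (RFC3), 76.1 (RFC4), 77.0 (RFC1), 77.3 (RFC5) and 82.2 (RFC2). RFC4 held the narrowest place of these, at 72.7 and 73.3 with H2A.Z.2 and 74.5 and 72.1 with H2A.Z.1 in postconfluent cells, against 75.9 and 84.5 with H2A.Z.2 and 78.9 and 77.0 with H2A.Z.1 in subconfluent cells. Every postconfluent value of RFC4 lay below every subconfluent one. The catalytic subunits of the replicative polymerases stood lower, with POLD1 at 52.0, POLA1 at 50.6 and POLE at 23.6 in the lists that held it. POLE stood at 26.0 with H2A.Z.2 Exp2 and 23.5 with H2A.Z.1 Exp1 in postconfluent cells, against 21.3 with H2A.Z.1 Exp2 in subconfluent cells. POLA1, of the priming polymerase, stood at 31.4 and 37.5 with H2A.Z.2 and 67.9 and 65.1 with H2A.Z.1 in postconfluent cells, against 52.0 and 41.3 with H2A.Z.2 and 61.3 and 48.5 with H2A.Z.1 in subconfluent cells. The states overlapped at POLA1.

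Nucleotide supply held the member with the largest difference between growth states. TYMS, thymidylate synthase, which makes the thymidine nucleotide for DNA, lies on the plus strand at chr18:657653-673578. It stood at 95.4 and 95.0 with H2A.Z.2 and at 80.0 and 97.2 with H2A.Z.1 in postconfluent cells, against 48.9 and 64.6 with H2A.Z.2 and 44.9 and 73.8 with H2A.Z.1 in subconfluent cells. The 2 states did not overlap. RRM1, the large subunit of ribonucleotide reductase, averaged 82.6, at 73.9 and 70.6 with H2A.Z.2 and 88.1 and 79.6 with H2A.Z.1 in postconfluent cells, against 89.0 and 93.2 with H2A.Z.2 and 87.8 and 79.0 with H2A.Z.1 in subconfluent cells. RRM2, the small subunit, averaged 35.3, at 14.9 and 29.6 with H2A.Z.2 and 45.5 with H2A.Z.1 Exp2 in postconfluent cells, against 47.7 and 19.2 with H2A.Z.2 and 29.1 and 61.2 with H2A.Z.1 in subconfluent cells. The 2 subunits of this enzyme thus stood far apart, and each overlapped between states. TK1, the thymidine kinase of the salvage pathway, averaged 39.0, at 30.5 and 62.8 with H2A.Z.2 and 34.7 and 22.7 with H2A.Z.1 in postconfluent cells, against 7.74 and 55.6 with H2A.Z.2 and 33.6 and 64.5 with H2A.Z.1 in subconfluent cells, with overlap.

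Of the genes of S-phase entry, CCNE2 averaged 87.1, E2F1 68.7 and CCNE1 67.7. The cyclins E encoded by CCNE1 and CCNE2 activate CDK2. CCNE1 stood at 69.2 and 77.1 with H2A.Z.2 and 71.9 and 65.9 with H2A.Z.1 in postconfluent cells, against 60.8 and 66.7 with H2A.Z.2 and 68.1 and 62.2 with H2A.Z.1 in subconfluent cells. CCNE2 stood at 91.5 and 92.3 with H2A.Z.2 and 97.2 and 95.6 with H2A.Z.1 in postconfluent cells, against 48.5 and 92.5 with H2A.Z.2 and 98.4 and 80.5 with H2A.Z.1 in subconfluent cells, and its interval also covered an end of NDUFAF6 in 7 lists. E2F1, an activating factor of the family whose spellings were counted above, was the sole occupied member with a known strand whose leading end was not its own start. That end lies 129 bp from the start of NECAB3, on the same strand, and the interval covered both in 7 lists. There E2F1 stood at 71.8 and 89.2 with H2A.Z.2 and 65.3 and 67.1 with H2A.Z.1 in postconfluent cells, against 43.5 and 73.4 with H2A.Z.2 and 70.3 and 68.8 with H2A.Z.1 in subconfluent cells, with overlap. At its own start, E2F1 had 2 intervals in every list, the stronger at percentiles 11.4 to 54.8 in postconfluent and 13.6 to 55.7 in subconfluent lists.

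No replication gene passed the test of a difference between growth states, and most of the differences were small. The question was whether the rank of H2A.Z at these genes differed in postconfluent cells from subconfluent ones. Ranks among the 10885 genes were turned into normal scores in units of SD and fitted with limma over all of them. With Benjamini-Hochberg adjustment at 0.05, 0 of 34 members and 5 of the 10885 genes (0.0459%) were called. At an unadjusted p under 0.05 there were 3 members and 995 genes (9.14%). The score was higher in postconfluent cells for 22 of 34 members, with a median difference of 0.15, and for 49.8% of all genes, with a median of 0.00. Without 1 list the members' median ran from 0.08, without H2A.Z.1 postconfluent Exp1 or H2A.Z.2 postconfluent Exp2, to 0.25, without H2A.Z.1 subconfluent Exp2.

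TYMS had the largest difference, 1.79 SD units (SE 0.40, 95% interval 0.96 to 2.63), with a limma adjusted p of 0.125 and 4 of 4 pairs of the same isoform and experiment higher in postconfluent cells. Its percentile averaged 91.9 ± 8.02 in postconfluent and 58.0 ± 13.5 in subconfluent lists (SD, n = 4 each), and its difference was 1.90 within Exp1 and 1.68 within Exp2. Ranked by the deposited −log10 p in place of fold enrichment, the TYMS difference was 1.44 with a limma adjusted p of 0.0274, which passes; over 21 alternatives the adjusted p ran from 0.0274 to 0.473. The strongest interval at TYMS was not the same feature in every list: relative to the start, its summit lay at −313 to −231 bp in 3 Exp1 lists and at 270 to 599 bp in the other 5. The part of that change in the difference was not tested.

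MCM6 followed, with 1.29 (SE 0.37, 95% interval 0.52 to 2.07, limma adjusted p = 0.305) and 4 of 4 pairs higher in postconfluent cells. Its percentile averaged 91.7 ± 3.38 in postconfluent and 65.8 ± 20.8 in subconfluent lists (SD, n = 4 each), and the difference was 1.89 within Exp1 and 0.70 within Exp2. Without H2A.Z.2 subconfluent Exp1, where its summit lay at −301 bp from the start and not downstream of it, the MCM6 difference was 0.96. In that list the 34 members had a median percentile of 62.0, against 76.7 for all genes, the widest such gap of the 8 lists. MCM4 was the other member at an unadjusted p under 0.05, with 0.94 (SE 0.43, 95% interval 0.04 to 1.83, limma adjusted p = 0.514) and 3 of 4 pairs higher. The lowest difference belonged to MCM10, −0.72 (95% interval −1.48 to 0.03, limma adjusted p = 0.561). Its summit lay at 403 and 547 bp from the start in the H2A.Z.1 subconfluent lists, and at −306 to −258 bp in the others. The part of that change in the MCM10 difference was not tested.

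The 4 postconfluent scores lay above the 4 subconfluent scores for 3 of 34 members, MCM6, TYMS and CCNE1, against 2.72% of all genes. The reverse held for 1 member, RFC4, against 2.78% of all genes. The CCNE1 difference was 0.25 (95% interval −0.45 to 0.96) and the RFC4 difference −0.31 (95% interval −1.02 to 0.39), so neither interval excluded 0. CCNE1 did not overlap on the score, but its percentiles did, at 65.9 to 77.1 in postconfluent and 60.8 to 68.1 in subconfluent lists. The strongest interval at CCNE1 covered its start in 0 lists and was not the same feature in every list. Its summit lay at 843 bp in H2A.Z.2 postconfluent Exp2, the list of its highest percentile, and at −806 to −594 bp in the others. The part of that change in the CCNE1 difference was not tested.

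**Figure D2:**
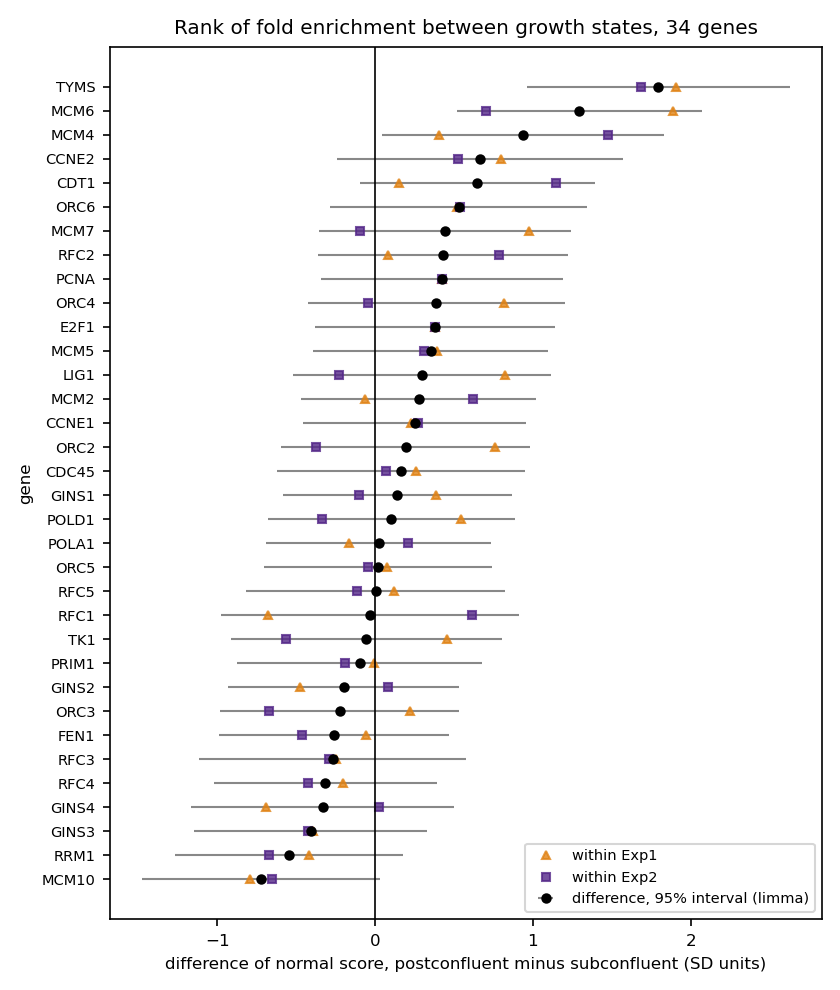
Difference of normal score, postconfluent minus subconfluent (SD units), for the 34 genes occupied in all 8 lists, with the limma estimate (black), its 95% interval and the values within Exp1 and Exp2. TYMS at 1.79, MCM6 at 1.29 and MCM4 at 0.94 have intervals above 0, and no gene passed the adjusted test.

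Within single isoforms, 0 members and 0 genes were called by limma. With H2A.Z.2, 3 members were at an unadjusted p under 0.05, against 5.82% of all genes. They were TYMS, 1.99, and MCM6, 1.82, each with a limma adjusted p of 0.737, and RRM1, −1.10 (limma adjusted p = 0.837). With H2A.Z.1, 4 members were at that level, against 6.89% of all genes. TYMS differed by 1.60, CDT1 by 1.09, MCM5 by 1.06 and MCM10 by −1.17, with limma adjusted p of 0.572 to 0.723. The score was higher in postconfluent cells for 20 of 34 members with H2A.Z.2 (all genes 49.7%) and for 19 with H2A.Z.1 (all genes 49.6%). These values rest on 2 lists per group: without 1 list TYMS ran from 0.89 to 2.31 and CDT1 from 0.60 to 1.55 with H2A.Z.1, and MCM6 from 1.15 to 2.47 with H2A.Z.2. TYMS was the sole member at that level with both isoforms.

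No difference between the isoforms was called at the replication genes. H2A.Z.2 was compared with H2A.Z.1 over both states, and limma called 0 members and 0 genes. At an unadjusted p under 0.05 there were 0 members and 406 genes (3.73%). The score was higher with H2A.Z.2 for 17 of 34 members and for 50% of all genes. The differences ran from −0.80 for CCNE2 (95% interval −1.70 to 0.11) to 0.38 for RFC5 (95% interval −0.44 to 1.20). CCNE2 averaged percentile 81.2 ± 21.8 with H2A.Z.2 and 92.9 ± 8.38 with H2A.Z.1 (SD, n = 4 each). For 0 members did all lists of one isoform lie above all lists of the other, against 1.11% of all genes with H2A.Z.2 above and 0.9% with H2A.Z.1 above. The interaction of state and isoform was called at 0 members and 0 genes by limma, with 0 members and 341 genes (3.13%) at an unadjusted p under 0.05, and ranged from −1.41 for MCM5 to 1.27 for PCNA. It was above 0 for 21 of 34 members and 50.3% of all genes. Interval names show that the isoforms of Exp1 were sequenced in different runs, so isoform and run cannot be told apart there, while the 4 lists of Exp2 shared 1 run.

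Mean interval widths at the 34 genes ranged from 401 to 2223 bp. The mean width had a median of 1205 bp over the 34 members and 1132 bp over all 10885 genes, and 19 of 34 members lay above 1132 bp. CCNE2 was widest at 2223 bp, followed by TYMS at 1723 and RRM1 at 1715 bp. TK1 was narrowest of the 34 at 401 bp, then POLA1 at 474 bp. Among members with a missing list, GMNN averaged 498 bp.

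Between growth states, limma on the width score called 0 members and 5 genes (0.0459%), with 5 members and 862 genes (7.92%) at an unadjusted p under 0.05. The width score was higher in postconfluent cells for 18 of 34 members and 42% of all genes. The 5 were E2F1, 1.44 (limma adjusted p = 0.326), GINS4, 0.47, CCNE1, −0.58, PRIM1, −0.68, and MCM10, −1.16 (limma adjusted p = 0.345). The E2F1 interval was 1431 and 2484 bp with H2A.Z.2 and 1920 and 2063 bp with H2A.Z.1 in postconfluent cells, against 1166 and 673 bp with H2A.Z.2 and 973 and 958 bp with H2A.Z.1 in subconfluent cells. All 4 postconfluent widths exceeded all 4 subconfluent ones, but they belong to the end that E2F1 shares with NECAB3. At E2F1's own start the difference was −0.46 (limma adjusted p = 0.717, the highest of 20 alternatives, with 0.146 the lowest).

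The MCM10 interval was 512 and 385 bp with H2A.Z.2 and 1138 and 1165 bp with H2A.Z.1 in postconfluent cells, against 1176 and 1354 bp with H2A.Z.2 and 1249 and 1111 bp with H2A.Z.1 in subconfluent cells. In bp the H2A.Z.1 widths overlapped between states, while on the score, which ranks widths within a list, each postconfluent list was below each subconfluent one. PRIM1 averaged 1480 ± 110 bp in postconfluent and 1734 ± 180 bp in subconfluent lists (SD, n = 4 each). On the width score, every postconfluent list lay above every subconfluent one for E2F1 alone of the 34, against 1.52% of all genes. The reverse held for 4 members, MCM10, PRIM1, FEN1 and CCNE1, against 3.47% of all genes. For CCNE1, the H2A.Z.2 postconfluent Exp2 width was again that of an interval with its summit downstream of the start, unlike the other lists.

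Between isoforms, limma on the width score called 0 members and 3 genes (0.0276%), with 4 members and 752 genes (6.91%) at an unadjusted p under 0.05. The width score was higher with H2A.Z.2 for 18 of 34 members and 58.4% of all genes. The 4 members had negative differences, MCM4 −1.41, TYMS −1.06, GINS4 −0.93 and MCM7 −0.83, with limma adjusted p of 0.352 to 0.698. GINS4 measured 442 and 442 bp with H2A.Z.2 and 1376 and 1460 bp with H2A.Z.1 in postconfluent cells, and 572 and 434 bp with H2A.Z.2 and 693 and 562 bp with H2A.Z.1 in subconfluent cells. The GINS4 gap between isoforms was wide in postconfluent cells and slight in subconfluent ones. On the width score, every H2A.Z.2 list lay above every H2A.Z.1 list for ORC5 and GINS1, 2 of 34, against 3.81% of all genes, and the reverse held for MCM7, 1 of 34, against 1.37%.

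**Figure D3:**
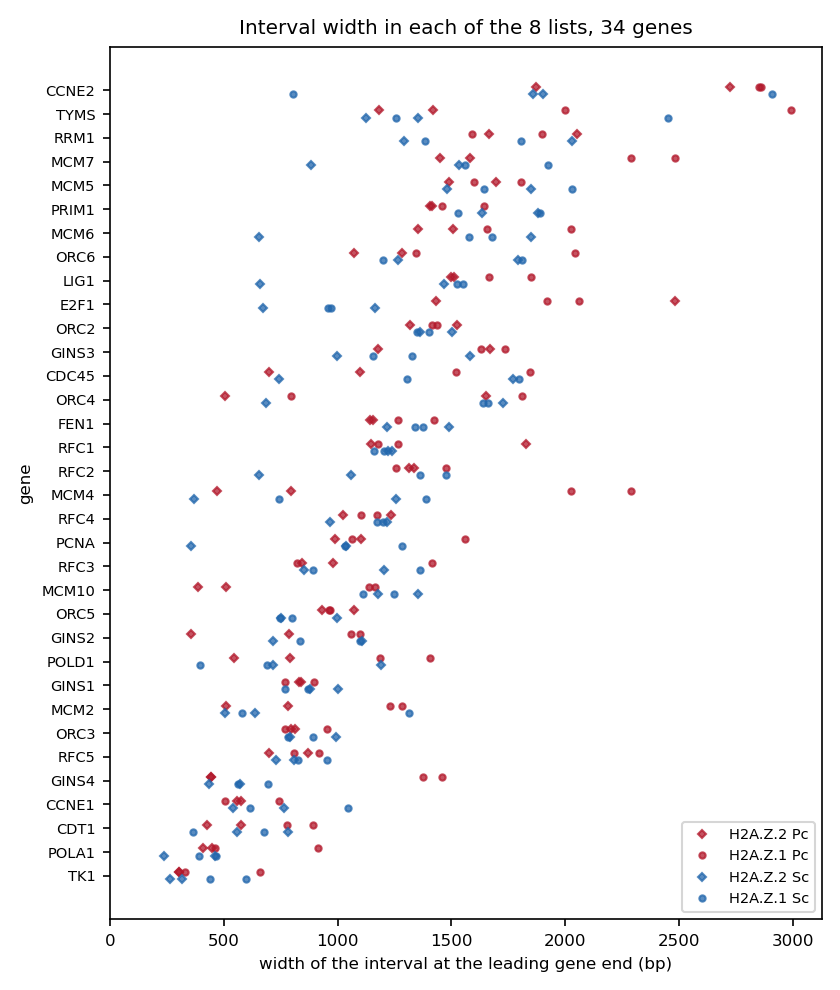
Width in bp of the interval at the leading gene end in each of the 8 lists for the 34 genes, ordered by mean width (red, postconfluent; blue, subconfluent; diamonds, H2A.Z.2; circles, H2A.Z.1). E2F1 shows all 4 postconfluent widths, 1431 to 2484 bp, to the right of all 4 subconfluent ones, 673 to 1166 bp.

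Summits at the replication genes lay on both sides of the start of transcription. In 30 members with an interval at that start in all 8 lists, the summit of the strongest interval was downstream in every list for 7 (23.3%) and upstream in every list for 9 (30%), and it changed sides between lists for 14 (46.7%). Among all 8820 such genes the shares were 25.1%, 27.7% and 47.2%. FEN1 was the most fixed, at −215 to −180 bp, a range of 35 bp, and PRIM1 lay 91 to 157 bp downstream, a range of 66 bp. For 11 of the 30 (36.7%), and for 33.7% of all genes, the summits fell within 200 bp.

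The summit of the strongest interval at TK1 differed in place between the states. It lay 709 and 703 bp downstream of the start with H2A.Z.2 and 759 and 727 bp with H2A.Z.1 in postconfluent cells. In subconfluent cells it lay 289 and 301 bp downstream with H2A.Z.2, and at −262 and 289 bp with H2A.Z.1. All 4 postconfluent summits of TK1 were further into the gene than any subconfluent one, while its percentiles overlapped. Each list held 2 or 3 intervals near the TK1 start, and the strongest one was a different interval in the 2 states, sharing no base. This was picked after the values were seen and was not tested. The summit lay further downstream in every postconfluent list for 2 of 30 members, RRM1 and TK1, against 2.26% of all genes, and in every subconfluent list for 1, LIG1, against 1.12%. For 0 members did the isoforms separate, against 1.13% of all genes with H2A.Z.2 further downstream and 1.66% with H2A.Z.1 further downstream.

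**Figure D4:**
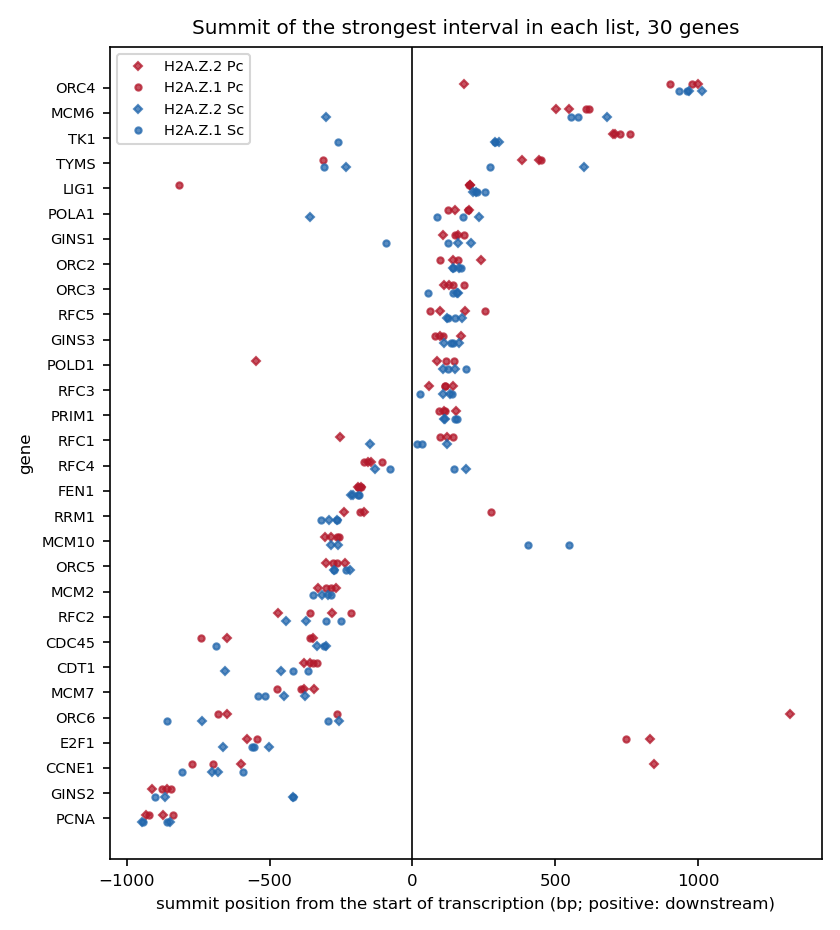
Position of the summit of the strongest interval relative to the start of transcription (bp, positive downstream) in each list for 30 genes (red, postconfluent; blue, subconfluent; diamonds, H2A.Z.2; circles, H2A.Z.1). The 4 postconfluent TK1 summits sit between 703 and 759 bp, and all 8 FEN1 summits between −215 and −180 bp.

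A further 50 replication genes were likewise mostly occupied, and limma called 0 of them in any of the 7 fits. An interval was present in all 8 lists at 44 of the 50 (88%). CHAF1A was in 4 lists and CHTF18 in 7, while RPA3, RECQL4 and UHRF1 were in none by the annotated ends. At its start of transcription in the promoter table, UHRF1, a reader of hemimethylated DNA, had an interval in 8 lists. Between growth states, limma called 0 of the 44, the score was higher in postconfluent cells for 19, and the median difference was −0.09. Those at an unadjusted p under 0.05 numbered 4 of 44, near the 9.14% of all genes at that level. They had lower scores in postconfluent cells and are named after their values were seen: DUT, which breaks down dUTP, by −0.99, WDHD1 by −0.98, DNA2, a nuclease and helicase, by −0.87, and POLD4, a small subunit of polymerase delta, by −0.86.

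Between 30603 and 79425 intervals were deposited per list, 39086 to 79425 in postconfluent and 30603 to 66522 in subconfluent cells. The authors' peak lists give no read depth, so no counting interval can be set. The weakest interval used had a −log10 p of 5.19 in H2A.Z.2 subconfluent Exp2, which was used whole, and of 9.99 to 16.8 in the other lists. The tagged genes were occupied in all 8 lists, H2AZ2 at percentiles 73.5 to 97.6 and H2AZ1 at 75.9 to 93.9, which does not check the tag. Of 10 markers of intestinal epithelium, CDX1, CDX2, HNF4A and CDH1 were occupied in all 8 lists. Of 10 markers of other cell types, COL1A1 alone was occupied in all 8 and 6 in none, and occupancy is not expression.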

How the data were processed

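Flag ChIP-seq peak lists of 8 samples were used, of 17 samples named in the labels; the other 9 are not analysed here. Per the submitters' processing notes, hg38, BWA and deepTools were used. The peak caller, its control and any use of the spike-in were not given in the sources used here. Reads were single, of 85 bp, per the labels' protocols. Each deposited list holds the score (10 times the −log10 q-value), the authors' fold enrichment (a ratio), the −log10 p-value and −log10 q-value, and the summit, each the authors' own value per interval, used only within its list. Lists were called per sample.

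The shortest list held 30603 intervals, and from each list as many were kept, by −log10 p. A gene was occupied where an interval overlapped, by at least 1 bp, the 1000 bp on either side of an annotated end of one of 20033 genes. Start of transcription and strand came from RefSeq promoters (15842 genes, 36 members). Normal scores of within-list ranks entered limma 3.58.1 under R 4.3.3, with a mean per group, and were tested 2-sided with Benjamini-Hochberg adjustment over 10885 genes, in 7 fits, after a test on simulated data. By rule, values in every list were given for members not in all 8 lists, called or at an unadjusted p under 0.05 in any fit, with the 5 highest or 5 lowest mean percentiles, with the 3 widest or 3 narrowest intervals, or with intervals at both ends. Other replication genes were named where called or not in all 8 lists. RFC4, as a gene whose groups did not overlap, and the genes of the printed promoters were chosen after their values were seen. The members and lists were chosen with earlier results of these data known.

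Alternatives were other list lengths, windows, overlap rules and ranking columns, a log2 scale, a replicate block, and leaving out each list.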

Additional observations from a re-analysis of the deposited data

How the results depend on the processing

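Across 17 alternatives, 23 members (with lists cut to 15301 intervals; all genes 37.7%) to 38 members (whole lists; all genes 57.9%) were occupied in all lists used, with 34 to 36 when 1 list was left out. In the 7 fits, the number of members called was 0 under every alternative but one: ranked by the deposited −log10 p, 1 member, TYMS, was called between growth states (1.44, limma adjusted p = 0.0274). Over 19 named results and 370 alternatives, 368 kept their direction and side of the threshold. TYMS passed in the case above, and the width difference of E2F1 reversed to −0.46 at the start of transcription, an alternative chosen after seeing the data; that position is another interval. Without 1 list, the MCM6 difference was at least 0.96 and that of MCM4 0.47 to 1.40, the lowest without H2A.Z.1 subconfluent Exp2. The genes called between growth states over all 10885, 5 in number, were 0 without Exp1 of postconfluent H2A.Z.2 or Exp2 of subconfluent H2A.Z.2 or of either H2A.Z.1 group. They were also 0 with lists cut to 15301 intervals (7509 genes tested) or to equal covered length (7985 genes tested). Ranked by −log10 p, 41 genes were called. The cause of these changes was not tested.

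Experiment numbers were not taken to pair the lists, although both states of one isoform and number shared a sequencing run. Same-numbered deviations correlated at 0.158 and 0.207 between states of one isoform and at −0.06 to 0.05 between isoforms. With the number as a replicate block, 0 members were called in any fit, TYMS had a limma adjusted p of 0.0549, and 9 genes were called between growth states.

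Peak lists hold only intervals past the authors' threshold, and say nothing of signal below it.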
